A study of Homo sapiens with 36 samples.

Results

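The interval between 2 and 4 h of copper exposure in HCT116, a human colorectal carcinoma cell line, was examined on 4 of the 36 Illumina bead arrays of the series, namely the 2 arrays of cells kept for 4 h and the 2 arrays of cells kept for 2 h with 1400 µM CuSO4 dissolved in DMEM. The question was which transcripts still rose, turned over or began to fall within these hours. The whole series followed HCT116 and BEAS-2B, an immortalized bronchial epithelial line that received 800 µM, through 0, 2, 4, 6, 12 and 18 h with 10 copper and 8 untreated arrays per line. Untreated HCT116 cells of 0, 2, 4 and 6 h (6 arrays) served as the level without copper, and BEAS-2B copper cells of 4 and 2 h (2 arrays each) as the most similar interval. Nothing in the labels tells whether replicate arrays stand for independent cultures. The p-values below therefore rest on differences among arrays, whose origin may be purely technical. All levels are normalized signals on the log2 scale, and levels of different genes were not set against each other, because each rests on its own probe.

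Copper ions in excess bind thiol groups of proteins and of glutathione and drive the formation of reactive oxygen species. Cells answer through several transcription factors: MTF1 induces metallothioneins and the zinc exporter SLC30A1, HSF1 induces chaperones for misfolded proteins, NRF2 induces antioxidant genes, and ATF4 induces genes of the integrated stress response. Kinase signalling adds a wave of immediate early genes whose transcripts are usually short-lived and fade within hours after a brief stimulus such as serum.

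Between 2 and 4 h, 616 genes rose and 751 fell among 14678 genes tested, which is 4.2% and 5.12% of them, or 9.31% in either direction. The test was the moderated test of limma, two-sided, with Benjamini-Hochberg adjustment over all genes and a threshold of 0.05. Of these, 174 genes (1.19%) rose and 172 (1.17%) fell by more than 2-fold. The median difference over all genes was -0.02. The standard deviation over genes was 0.39 for this interval, against 0.34 and 0.30 for the difference between the 2 arrays of 4 h and of 2 h. All 1367 called genes had non-overlapping arrays, as did 50.4% of all genes tested. The spread behind these calls was estimated in 1 fit of all 36 arrays, both lines and all times included. With only the HCT116 arrays in the fit 832 genes were called, and with only the 4 arrays compared 396. Leaving out 1 of the 4 arrays lowered the count of calls to between 770 and 886, and 255 rises and 245 falls were called in all 4 of these fits.

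Time in culture alone was covered by 1 untreated array at 4 h and 1 at 2 h. Between those, 45 genes were higher and 48 lower by more than 2-fold, against 177 and 188 in copper regardless of call, and the standard deviation over genes was 0.30. When the untreated difference was subtracted from the copper difference, 165 genes (1.12%) rose and 116 (0.79%) fell, together 1.91% of all genes, so most calls of the direct comparison were not calls in this one. Over the 1367 called genes the median of the corrected difference relative to the direct one was 0.99, while that of the standard errors was 1.73, since each untreated time has 1 array. NFKBIA, picked after its values were seen, had -1.56 directly and -1.54 after subtraction (adjusted p = 0.062). The share of probes detected above background was 38.8% and 39.6% at 4 h, 40.9% and 39.7% at 2 h, and 39.6% to 42.4% on the untreated arrays.

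**Figure D1:**
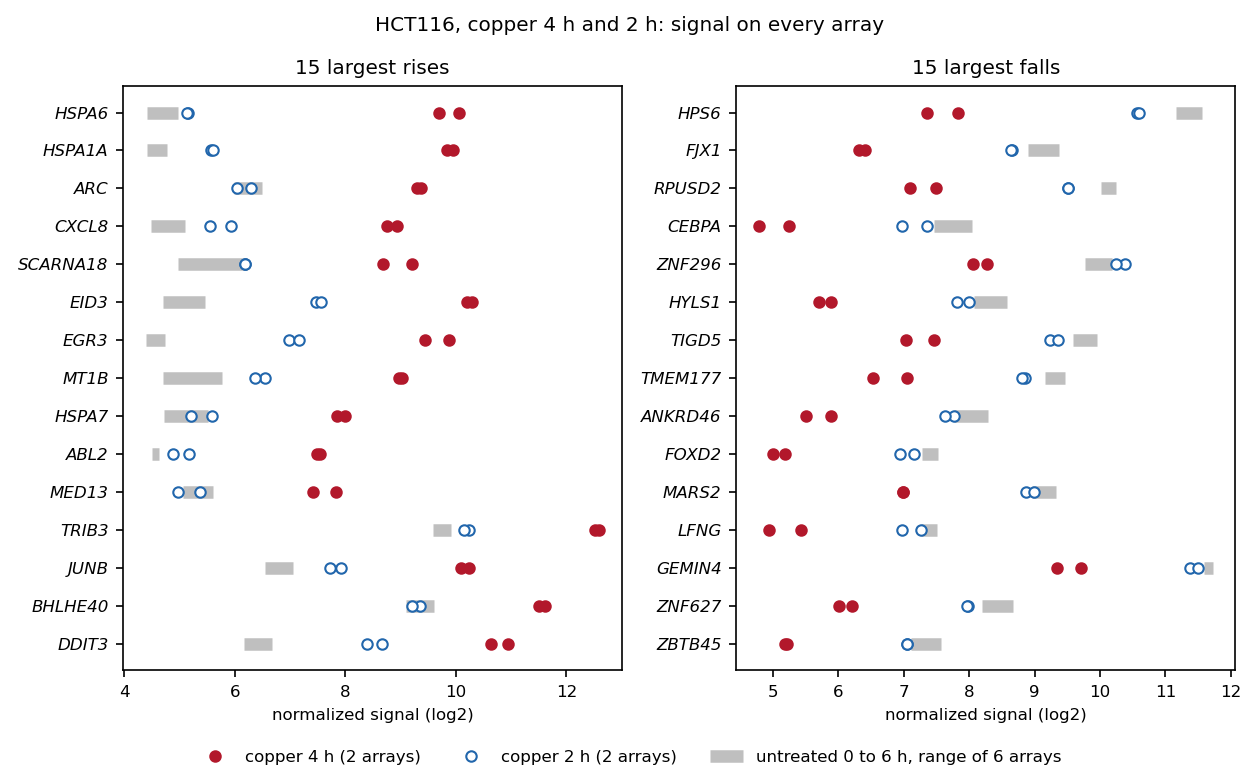
Normalized signal (log2, horizontal axis) of the 15 genes with the largest rises (left) and the 15 with the largest falls (right) between 2 and 4 h in copper. Filled points are the 2 arrays of 4 h, open points the 2 arrays of 2 h, and the grey bar spans the 6 untreated arrays of 0 to 6 h. HSPA6 and HSPA1A moved furthest up and HPS6 furthest down. Genes were ranked only among those whose 4 h and 2 h arrays do not overlap.

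Genes were sorted by what had happened by 2 h. Against the untreated mean, 271 genes (1.85%) were already higher and 54 (0.368%) lower at 2 h, together 2.21%. At 4 h, 1437 (9.79%) were higher and 1750 (11.9%) lower, together 21.7%. Of the genes up at 2 h, 141 rose further by 4 h, 17 turned over and 113 had no call between 2 and 4 h. Of the genes down at 2 h, 18 fell further, 3 recovered and 33 had no call. Most changes of the interval were first calls: 472 genes rose and 716 fell without a call at 2 h. The 2 h arrays enter both comparisons, with opposite sign, so a 2 h array that reads high by chance favours a turn-over and one that reads low favours a further rise. The genes that rose further had a median gain of 1.00 after a median of 0.82 at 2 h, and those rising for the first time a median gain of 0.69 after 0.06.

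Chaperone genes of the heat shock response rose together. Of 32 measured members of the list, 18 rose, 0 fell and 14 had no call, with a median difference of 0.53 and 14 calls present in all fits that left out 1 array. HSPA6, an HSP70 gene that is nearly silent without stress, gave 10.06 and 9.70 on the 4 h arrays and 5.15 and 5.14 on the 2 h arrays. Its untreated signal was not above background on any of 6 arrays, and the rise within the interval was 26.7-fold (4.74 ± 0.12 log2, standard error, adjusted p = 3.1e-14). A second HSPA6 probe rose by 2.64. HSPA1A, a major stress-inducible HSP70, read 9.83 and 9.95 at 4 h and 5.56 and 5.60 at 2 h, a rise of 4.31 ± 0.17 (adjusted p = 1.6e-11). The pair shows the same course, with a small step by 2 h and most of the change up to 4 h after it. HSPA1B, whose coding sequence is almost that of HSPA1A, read 14.17 and 14.26 at 4 h and 14.12 and 14.25 at 2 h, with overlapping arrays and a difference of 0.03 ± 0.11 (adjusted p = 0.94). It had gained 0.88 by 2 h over untreated levels of 13.20 to 13.42. Signals of such near-identical genes, HSPA6 and HSPA7 among them, cannot be assigned with certainty to 1 locus.

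Cochaperones rose by less than HSPA6 and HSPA1A. DNAJB1, which stimulates the HSP70 ATPase, reached 13.57 and 13.54 at 4 h, against 12.43 and 12.34 at 2 h (1.17 ± 0.11, adjusted p = 1.3e-06). DNAJB6, a suppressor of protein aggregation, gave 11.90 and 12.01 at 4 h and 10.52 and 10.56 at 2 h (1.42 ± 0.11, adjusted p = 1.6e-07), with 0.60 on its other probe. BAG3, which links HSP70 to selective autophagy, rose by 1.19 ± 0.13, and HSPH1, a nucleotide exchange factor of HSP70, by 0.67 ± 0.09. HSPA7, a pseudogene close to HSPA6 in sequence, rose by 2.53 ± 0.20. HSF1 itself was not detected on either 4 h array and was called in neither direction (adjusted p = 0.27).

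Promoters of 300 bases (250 before to 50 after the annotated start) were available from RefSeq (GRCh38.p14) for 11508 of the 14678 tested genes and 473 of the 616 that rose. The heat shock element searched was GAA, any 2 bases, TTC, any 2 bases and GAA, on both strands, and it occurred in 0.365% of the promoters of tested genes. It was present in 1.27% of the promoters of genes that rose and in 3.77% (4 of 106) of those of genes that rose further after a call at 2 h. These shares are a description of small counts. The promoters of HSPA6 (chr1:161524290-161524589, plus strand) and DNAJB6 (chr7:157336754-157337053, plus strand) are shown as the 2 named genes of the heat shock list that hold this exact element, which is in capitals and begins 74 and 131 bases before the start.
HSPA6: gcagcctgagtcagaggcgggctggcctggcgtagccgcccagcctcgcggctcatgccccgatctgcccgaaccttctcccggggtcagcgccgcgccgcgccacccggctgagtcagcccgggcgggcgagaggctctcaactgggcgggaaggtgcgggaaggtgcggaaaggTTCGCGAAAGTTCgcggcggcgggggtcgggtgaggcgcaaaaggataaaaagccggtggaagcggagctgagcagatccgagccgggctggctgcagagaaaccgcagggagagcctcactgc
DNAJB6: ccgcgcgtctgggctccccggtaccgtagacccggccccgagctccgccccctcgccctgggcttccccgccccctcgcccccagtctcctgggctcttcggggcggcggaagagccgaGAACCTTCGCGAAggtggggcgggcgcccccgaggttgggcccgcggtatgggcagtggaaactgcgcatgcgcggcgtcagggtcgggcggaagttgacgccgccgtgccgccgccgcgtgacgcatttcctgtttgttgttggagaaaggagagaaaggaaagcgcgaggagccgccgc
The windows of HSPA1A, DNAJB1 and HSPH1 do not hold these exact letters.

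Metal-handling genes were counted as metallothioneins and as zinc and copper transport genes. Among 9 metallothioneins, which chelate copper and zinc, 3 rose and 0 fell (median 0.32), and 1 of the 3 calls was present in every fit that left out an array. MT1B read 8.97 and 9.02 at 4 h and 6.55 and 6.35 at 2 h, with untreated arrays from 4.70 to 5.76, and so rose by 2.54 ± 0.15 (adjusted p = 4.8e-09). MT1G (0.65 ± 0.18, adjusted p = 0.026) and MT1H (0.84 ± 0.22, adjusted p = 0.022) rose as well. The MT1G call was lost without either 4 h array and without replicate 1 of 2 h, and the MT1H call without any 1 of the 4 arrays, at adjusted p up to 0.22 and 0.14. MT1X, MT1F and MT2A had no call within the interval: MT1X gave 13.80 and 13.84 at 4 h and 13.39 and 13.55 at 2 h, after a gain of 0.99 by 2 h, and MT2A was at 14.21 on both 4 h arrays and at 14.00 and 14.28 at 2 h. Probes of this family can cross-hybridize, because the MT1 transcripts are close in sequence.

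Of 22 zinc and copper transport genes, 1 rose and 2 fell. These shares, 4.55% and 9.09%, stand beside 4.2% and 5.12% over all genes tested. SLC30A1, which exports zinc and is a classical MTF1 target, read 12.04 and 11.87 at 4 h and 11.02 and 11.05 at 2 h, rising by 0.92 ± 0.13 (adjusted p = 1.5e-04) after a gain of 2.21 by 2 h. SCO1 and SCO2, the chaperones that deliver copper to cytochrome c oxidase, fell: SCO2 gave 8.06 and 8.26 at 4 h and 9.57 and 9.47 at 2 h (-1.36 ± 0.25, adjusted p = 0.0013), and SCO1 fell by 0.68 ± 0.10. Transporters of copper itself had overlapping arrays or small differences, with SLC31A1 at 0.26 ± 0.20, ATP7A at 0.28 ± 0.20 and ATP7B at 0.00 ± 0.20, none of them called. The mRNA of MTF1 was not called either (-0.31 ± 0.16, adjusted p = 0.28).

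The MT1B promoter (chr16:56651636-56651935, plus strand) is shown because this metallothionein rose most. Its 3 metal response element cores, TGCACNC or TGCGCNC on either strand, are in capitals, the first of them beginning 186 bases before the start.
MT1B: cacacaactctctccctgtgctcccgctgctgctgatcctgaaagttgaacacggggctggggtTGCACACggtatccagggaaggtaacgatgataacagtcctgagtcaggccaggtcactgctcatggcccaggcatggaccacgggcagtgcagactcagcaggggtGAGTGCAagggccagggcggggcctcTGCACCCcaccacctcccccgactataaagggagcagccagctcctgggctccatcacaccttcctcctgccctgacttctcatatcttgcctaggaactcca
Such cores are frequent in these windows, at 37.1% over tested genes, 35.9% over genes that rose and 42.1% over genes that fell. Other metallothionein windows hold more of them, with 8 for MT1H, 8 for MT2A and 4 for MT1X, although MT2A and MT1X had no call.

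Most immediate early genes rose. Of 22 members, 12 were up at 2 h, and between 2 and 4 h 17 rose and 1 fell, with a median of 0.92, and 14 of these calls were present in all fits that left out an array. ARC, an activity-regulated gene best known from neurons, read 9.36 and 9.30 at 4 h and 6.30 and 6.04 at 2 h, where it was still within the untreated range of 5.98 to 6.49. Its rise of 3.16 ± 0.20 (adjusted p = 1.1e-08) thus began after 2 h. EGR3, a zinc-finger factor, was at 9.87 and 9.44 at 4 h and 6.97 and 7.15 at 2 h (2.59 ± 0.21, adjusted p = 1.6e-07), having left a background-level untreated signal by 2 h. FOSB and JUNB, subunits of the AP-1 transcription factor, rose by 2.16 ± 0.15 and 2.35 ± 0.19. JUNB gave 10.09 and 10.23 at 4 h and 7.71 and 7.91 at 2 h, and FOSB 11.46 and 11.62 at 4 h and 9.26 and 9.50 at 2 h.

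The AP-1 subunits FOS and JUN and the zinc-finger factor EGR1 gained less between 2 and 4 h than they had by 2 h. FOS read 11.33 and 11.40 at 4 h and 10.37 and 10.31 at 2 h (1.02 ± 0.15, adjusted p = 2.2e-04), after a gain of 4.56 by 2 h. JUN gave 12.47 and 12.60 at 4 h and 11.37 and 11.55 at 2 h (1.07 ± 0.13), after 3.47. EGR1 gave 13.12 and 13.04 at 4 h and 12.36 and 12.23 at 2 h (0.79 ± 0.11), after 3.44. The 1 falling member of the list, named for that reason after its value was seen, was MYC, a growth-promoting factor (-0.85 ± 0.13, adjusted p = 2.5e-04). With the untreated interval subtracted, ARC, EGR3, FOSB, JUNB and EGR1 were called, and FOS (0.69, adjusted p = 0.28) and JUN (0.74, adjusted p = 0.12) were not.

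Feedback genes of the same kinases rose too. Among 16 dual-specificity phosphatases and related ERK inhibitors, 7 rose and 2 fell, and 4 of these 9 calls were present in all fits without an array. DUSP1, which dephosphorylates JNK and p38, read 12.67 and 12.58 at 4 h and 11.00 and 10.92 at 2 h (1.67 ± 0.10, adjusted p = 4.8e-09). DUSP2 gave 11.01 and 11.43 at 4 h and 9.08 and 8.89 at 2 h (2.24 ± 0.18), DUSP5 rose by 1.23 ± 0.12, and SPRY4 by 0.92 ± 0.16 with probes between -0.06 and 0.92. HBEGF, an EGF receptor ligand, rose by 1.44 ± 0.14, and 2 of 6 genes of its list rose. Of 9 KLF factors 3 rose, with KLF10 at 9.34 and 9.63 at 4 h and 7.30 and 7.33 at 2 h (2.17 ± 0.21, adjusted p = 1.8e-06). Among 15 circadian and PAR bZIP genes 3 rose, led by the repressor BHLHE40, which gave 11.51 and 11.61 at 4 h and 9.35 and 9.20 at 2 h, where it was within the untreated range of 9.10 to 9.60.

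The cyclic AMP response element TGACGTCA, a site of CREB, ATF and some AP-1 dimers, was found in 3.06% of the promoters of tested genes, in 5.71% of those of genes that rose and in 9.43% (10 of 106) of those of genes that rose further after 2 h. It stood in 3.89% of the promoters of genes that fell. Named genes with the element include GABARAPL1, which rose, CCNA2 and MCM10, which fell, and SLC31A1, which had no call. Shown are 3 stress genes that hold it, DUSP1 (chr5:172771146-172771445, minus strand), PPP1R15A (chr19:48872171-48872470, plus strand) and MAFF (chr22:38201744-38202043, plus strand), with the element in capitals, and EGR1 (chr5:138465229-138465528, plus strand), in which the capitals mark 2 serum response elements (CArG boxes).
DUSP1: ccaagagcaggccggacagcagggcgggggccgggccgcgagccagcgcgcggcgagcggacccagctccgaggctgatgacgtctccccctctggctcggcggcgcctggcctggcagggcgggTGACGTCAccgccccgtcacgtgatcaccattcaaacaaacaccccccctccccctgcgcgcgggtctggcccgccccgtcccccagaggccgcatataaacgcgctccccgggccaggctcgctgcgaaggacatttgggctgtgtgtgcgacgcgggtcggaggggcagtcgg
PPP1R15A: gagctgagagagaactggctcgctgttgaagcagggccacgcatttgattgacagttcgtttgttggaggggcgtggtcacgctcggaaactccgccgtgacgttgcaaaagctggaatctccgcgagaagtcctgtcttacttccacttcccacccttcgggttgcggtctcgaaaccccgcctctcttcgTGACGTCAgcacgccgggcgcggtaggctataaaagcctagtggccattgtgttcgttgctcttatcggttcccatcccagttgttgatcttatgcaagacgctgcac
MAFF: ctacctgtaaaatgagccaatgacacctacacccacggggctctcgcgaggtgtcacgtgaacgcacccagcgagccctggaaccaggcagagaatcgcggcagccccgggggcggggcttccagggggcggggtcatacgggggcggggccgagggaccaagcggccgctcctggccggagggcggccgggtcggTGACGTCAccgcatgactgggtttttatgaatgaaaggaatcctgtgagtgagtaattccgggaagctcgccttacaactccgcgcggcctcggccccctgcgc
EGR1: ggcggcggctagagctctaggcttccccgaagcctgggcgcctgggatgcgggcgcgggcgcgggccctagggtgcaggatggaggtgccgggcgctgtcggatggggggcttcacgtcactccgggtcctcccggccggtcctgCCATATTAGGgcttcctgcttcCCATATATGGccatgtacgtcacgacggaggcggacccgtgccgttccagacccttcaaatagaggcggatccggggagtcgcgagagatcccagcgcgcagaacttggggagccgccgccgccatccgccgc
The first marked base lies 125, 58, 54 and 105 bases before the start in this order. CArG boxes stood in 0.94% (1 of 106) of the promoters of genes that rose further, against 1.13% over all tested genes, and the antioxidant response element core TGACNNNGC stood at 21.7% against 14.9%.

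Genes of the integrated stress response rose in 10 of 26 cases and fell in 0, with a median of 0.29 and 8 calls present in all fits without an array. TRIB3, a pseudokinase that restrains AKT signalling, read 12.52 and 12.60 at 4 h and 10.24 and 10.15 at 2 h, a 5.14-fold rise (2.36 ± 0.09, adjusted p = 2.0e-11). DDIT3, which encodes the pro-apoptotic factor CHOP, gave 10.64 and 10.95 at 4 h and 8.39 and 8.67 at 2 h (2.27 ± 0.15, adjusted p = 1.5e-08). PPP1R15A, which recruits the phosphatase that ends the response, rose by 1.66 ± 0.11, and ATF3 by 1.60 ± 0.12. TRIB3 had gained only 0.44 by 2 h, while DDIT3, PPP1R15A and ATF3 had gained 2.05, 2.76 and 2.73. The mRNA of ATF4 itself, which is largely controlled in translation, read 13.45 and 13.58 at 4 h and 13.43 and 13.39 at 2 h and was not called (0.10 ± 0.09, adjusted p = 0.65).

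Chaperones of the endoplasmic reticulum had calls near the share over all genes: of 19 genes 1 rose and 1 fell, with a median of 0.00. That is 5.26% each way, against 4.2% and 5.12% of all genes tested. Neither call was present in all fits without an array. Against untreated cells, 4 of the 19 were already higher at 2 h, and 9 were higher and 1 lower at 4 h. Over all genes 9.79% were higher and 11.9% lower at 4 h. Genes of growth arrest and of the p53 pathway rose in 6 of 23 cases and fell in 1, with 4 of these 7 calls present in all fits without an array. GADD45B and GADD45A, stress sensors that bind MAP kinase kinases and cell cycle proteins, rose by 1.83 ± 0.13 and 1.34 ± 0.12. SESN2, a sestrin that dampens mTORC1, gave 7.75 and 7.37 at 4 h and 5.56 and 5.70 at 2 h (1.93 ± 0.22, adjusted p = 1.0e-05). CDKN1A, the p21 inhibitor of cyclin-dependent kinases, rose by 1.07 ± 0.12 and had not been called at 2 h. MDM2, another p53 target, was not called (0.39 ± 0.31).

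NRF2 targets rose in 8 of 24 cases and fell in 0 (median 0.24). HMOX1, which degrades haem, was at 13.16 and 13.27 at 4 h and 11.70 and 11.83 at 2 h, with untreated arrays between 8.17 and 8.62. Its rise of 1.45 ± 0.15 (adjusted p = 3.3e-06) followed a gain of 3.38 by 2 h. SLC7A11, the cystine importer that feeds glutathione synthesis, gave 7.46 and 6.84 at 4 h and 5.50 and 5.77 at 2 h (1.51 ± 0.20). Its 2 h arrays already lay above the untreated range of 4.79 to 5.37, without a call (0.57, adjusted p = 0.091). SRXN1, which repairs peroxiredoxins, rose by 0.97 ± 0.13. MAFF rose by 1.45 ± 0.17 on its brightest probe, and by only 0.03 on the least responsive of its 3 probes. TXNRD1 gave 12.35 and 12.22 at 4 h and 11.92 and 11.96 at 2 h without a call (0.35 ± 0.12, adjusted p = 0.097). Calls of 5 of the 8 genes were present in all fits that left out an array.

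Some protein turnover genes rose. Shares that rose were 33.3% for ubiquitin and ZFAND genes, 11.1% for proteasome subunits and 10.0% for autophagy genes. Over all genes tested the share was 4.2%. The share of autophagy genes that fell, 5.0%, was near the 5.12% over all genes. Of 12 ubiquitin and ZFAND genes 4 rose, with ZFAND2A, which aids the proteasome under metal stress, at 13.40 and 13.32 at 4 h and 11.72 and 11.93 at 2 h (1.53 ± 0.15, adjusted p = 2.0e-06). Of 27 proteasome subunits 3 rose, led by PSMA2 (0.79 ± 0.12), whose call alone was present in all fits without an array, and the median was 0.07. Of 20 autophagy genes 2 rose and 1 fell, and the 2 rises were present in all such fits. MAP1LC3B, a membrane tag of autophagosomes, gave 11.26 and 11.20 at 4 h and 9.72 and 9.51 at 2 h (1.61 ± 0.13), and its relative GABARAPL1 rose by 1.09 ± 0.11.

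Cytokine and NF-kB genes moved in both directions, with 4 of 21 up and 2 down and 4 of these 6 calls present in all fits without an array. CXCL8, a neutrophil chemoattractant, read 8.94 and 8.75 at 4 h and 5.93 and 5.55 at 2 h, an 8.61-fold rise (3.11 ± 0.17, adjusted p = 3.6e-09), and its other probe rose by 2.17. IL11, a cytokine of the IL-6 family, rose by 1.17 ± 0.17 and PTGS2, the inducible cyclooxygenase, by 1.10 ± 0.15. NFKBIA, the inhibitor that NF-kB induces against itself, fell instead: it gave 7.92 and 7.73 at 4 h and 9.39 on both 2 h arrays (-1.56 ± 0.23, adjusted p = 2.2e-04). Hypoxia targets rose in 6 of 18 cases and fell in 2, with 1 of the 8 calls, that of BNIP3L (0.69 ± 0.11), present in all fits without an array. In the BCL2 and caspase list 4 of 18 rose and 1 fell, and 1 of these 5 calls was present in all fits without an array. The falling gene was FADD, the adaptor of death receptors, with 7.24 and 6.75 at 4 h and 8.78 and 8.79 at 2 h (-1.79 ± 0.19, adjusted p = 5.8e-06). Probes of CASP9, another member of this list, disagreed, with 1.00 on the tested probe and -0.51 on the other.

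**Figure D2:**
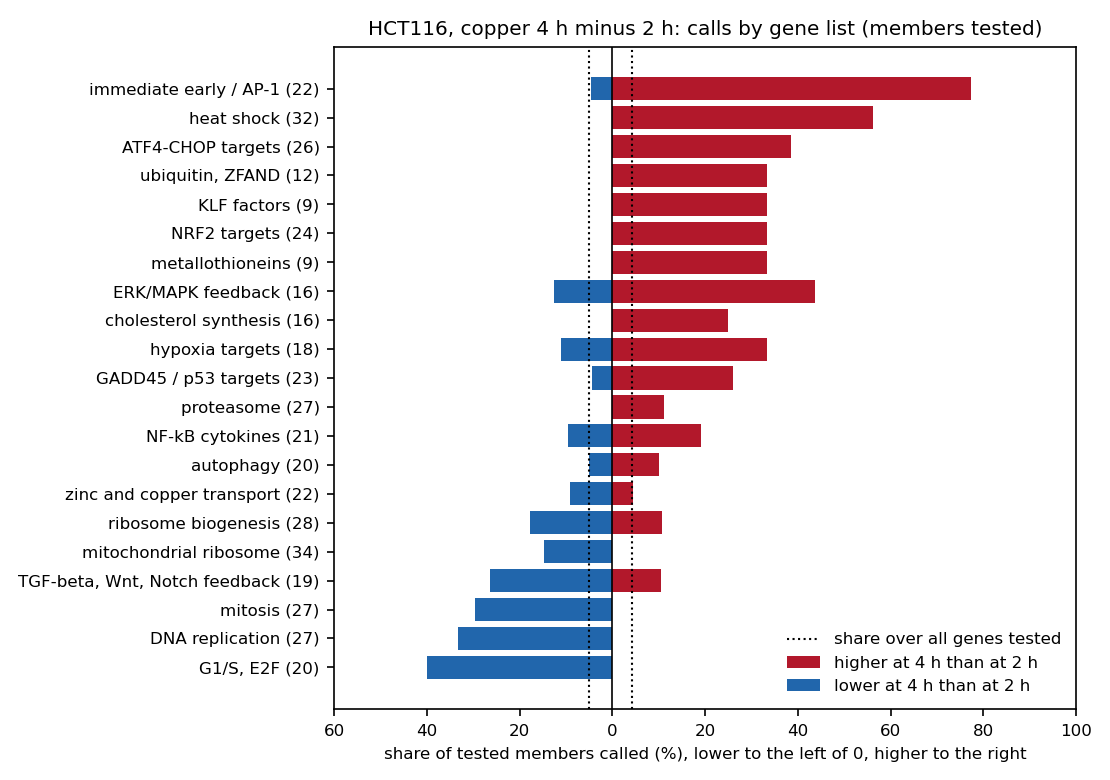
Share of tested members of 21 gene lists called higher (right of 0) or lower (left of 0) at 4 h than at 2 h, in percent, with the number of members tested in brackets. Dotted lines mark the shares over all genes tested, 4.2% higher and 5.12% lower. Immediate early and heat shock genes reach furthest to the right, and G1/S, DNA replication and mitosis genes extend only to the left.

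Some classes of small noncoding RNA held many rises in HCT116, and the classes were formed after values had been seen. Over all genes tested 4.2% rose and 5.12% fell. Of 76 H/ACA snoRNAs, which guide pseudouridylation of ribosomal RNA, 18 rose (23.7%) and 1 fell (1.32%), with a median of 0.30. Of 90 C/D snoRNAs, which guide ribose methylation, 5 rose (5.56%, near the share over all genes) and 2 fell (2.22%), with a median of 0.05. Among 17 small RNAs of Cajal bodies 4 rose (23.5%) and 1 fell (5.88%). Among 13 spliceosomal snRNA genes 6 rose (46.2%) and 0 fell. SCARNA18 read 8.68 and 9.21 at 4 h and 6.17 and 6.18 at 2 h (2.77 ± 0.24, adjusted p = 6.0e-07). SNORA20 was detected on both 4 h arrays and on neither 2 h array, and was at least 2.72-fold higher at 4 h. On the untreated arrays of 4 and 2 h the median difference of the H/ACA group was 0.07, and in BEAS-2B copper cells it was -0.01. The snRNA genes, with a median of 0.59 in HCT116 copper cells, had 0.21 on the untreated arrays and 0.36 in BEAS-2B. The Cajal body RNAs had 0.29 in HCT116 copper cells, -0.04 on the untreated arrays and 0.16 in BEAS-2B, and the C/D group had 0.10 on the untreated arrays and 0.02 in BEAS-2B. Whether these probes read the mature RNA or longer precursors was not tested. The snRNA genes have near-identical copies, so single loci are uncertain. Among long noncoding RNAs at large 1.99% rose and 2.65% fell, below the shares over all genes. Of 12 long noncoding RNAs in a list made up mostly of snoRNA hosts 2 rose, both calls being lost without any 1 array, and of 302 long noncoding RNAs 6 rose and 8 fell.

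Other genes among the largest rises had varied roles. EID3, an inhibitor of EP300-dependent transcription, gave 10.21 and 10.30 at 4 h and 7.47 and 7.56 at 2 h, after untreated levels of 4.69 to 5.45 (2.74 ± 0.17, adjusted p = 6.9e-09). ABL2, a tyrosine kinase, and MED13, a subunit of the Mediator kinase module, rose by 2.49 ± 0.16 and 2.46 ± 0.20 on 1 probe and by only 0.46 on another probe of each. ARL14, a small GTPase, was detected on both 4 h arrays, at 7.18 and 7.34, and on neither 2 h array, and was at least 5.68-fold higher at 4 h (adjusted p = 2.7e-08). The hairpin gene MIR574 was likewise detected on both 4 h arrays and on neither 2 h array, and read 2.95-fold higher at 4 h. VTRNA2-1 and RBM33, with the same detection, read 2.29-fold and 2.27-fold higher. Each of these 2 calls was present in only 1 of the 4 fits that left out an array. Their differences then ranged from 0.43 to 1.96 and from 1.04 to 1.33 (log2). For MIR574, VTRNA2-1 and RBM33 the undetected 2 h signals lay above the lowest detected signal, so these folds are of measured signals.

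The falls were led by HPS6, a subunit of a complex that forms lysosome-related organelles. It read 7.83 and 7.35 at 4 h and 10.56 and 10.59 at 2 h, with untreated arrays between 11.17 and 11.56. It was 7.93-fold lower at 4 h (-2.99 ± 0.18, adjusted p = 6.9e-09) and was among the 18 genes that fell further after a call at 2 h. FJX1, a secreted kinase-like protein, gave 6.31 and 6.41 at 4 h and 8.65 and 8.64 at 2 h (-2.29 ± 0.23). CEBPA, a differentiation factor that restrains proliferation, read 5.24 and 4.78 at 4 h and 6.97 and 7.35 at 2 h (-2.15 ± 0.29, adjusted p = 7.1e-05), with 1 of the 4 h arrays below detection. CEBPA, FJX1, FOXD2 and HPS6 are genes without introns, a feature whose share among the falling genes was not tested. The other members of the 15 largest falls, ZNF296, HYLS1, TIGD5, TMEM177, ANKRD46, FOXD2, MARS2, LFNG, ZNF627 and ZBTB45 together with RPUSD2 and GEMIN4 below, fell by between 1.85 and 2.22. MARS2 and LFNG each had another probe that did not fall, at 0.00 and 0.12.

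GEMIN4 and GEMIN6, subunits of the SMN complex that assembles spliceosomal snRNPs, both fell. GEMIN4 read 9.71 and 9.34 at 4 h and 11.37 and 11.49 at 2 h (-1.91 ± 0.14, adjusted p = 6.1e-08), and GEMIN6 read 8.36 and 8.45 at 4 h and 9.92 and 9.96 at 2 h (-1.53 ± 0.13). INTS5, a subunit of the Integrator complex that processes snRNAs, fell by 1.44 ± 0.17. RPUSD2, a pseudouridine synthase, gave 7.49 and 7.10 at 4 h and 9.50 and 9.51 at 2 h (-2.22 ± 0.24). IMP3, a component of the nucleolar U3 particle, was at 10.21 and 10.17 at 4 h and 11.93 and 11.69 at 2 h (-1.62 ± 0.13, adjusted p = 1.7e-07). Over the 28 genes of ribosome biogenesis, RPUSD2 and IMP3 included, 5 fell and 3 rose, with 3 of these 8 calls present in all fits without an array. Of 34 mitochondrial ribosomal proteins 5 fell and 0 rose, of which MRPL44 (-0.82 ± 0.14) and MRPS12 (-0.66 ± 0.12) were called in all such fits.

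The lists of proliferation genes held falls and 0 rises. Of 20 genes of the G1/S transition 8 fell (median -0.32), of 27 DNA replication genes 9 fell (median -0.29) and of 27 mitosis genes 8 fell (median -0.27). E2F8, a repressor of the E2F family, gave 5.30 and 5.13 at 4 h and 6.85 and 6.68 at 2 h (-1.55 ± 0.14, adjusted p = 6.0e-07). FBXO5, the inhibitor of the anaphase-promoting complex, read 8.78 and 8.72 at 4 h and 10.69 and 10.45 at 2 h (-1.82 ± 0.19), with -0.71 on its other probe. FEN1, the flap endonuclease of lagging-strand synthesis, fell by 1.01 ± 0.10, and MCM10, a replication initiation factor, by 1.19 ± 0.15. E2F2 and CDC25A, the phosphatase that activates CDK2, fell by 1.18 ± 0.16 and 1.09 ± 0.16. In mitosis only AURKA (-0.77 ± 0.14) and CCNA2 (-0.75 ± 0.14) were called in every fit without an array, against 6 calls each for DNA replication and G1/S. None of these named genes had been called by 2 h.

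Feedback genes of the TGF-beta, Wnt and Notch pathways fell in 5 of 19 cases and rose in 2, with 4 of these 7 calls present in all fits without an array. AXIN2, a Wnt target that promotes beta-catenin degradation, read 6.34 and 6.53 at 4 h and 7.55 on both 2 h arrays (-1.12 ± 0.20, adjusted p = 9.4e-04), after a fall of 0.79 by 2 h. DKK1, a secreted Wnt antagonist, gave 11.83 and 11.71 at 4 h and 12.95 on both 2 h arrays (-1.18 ± 0.14). Probes of the list members SKIL and HEY1 disagreed, with 1.23 and -0.21 for SKIL and 1.12 and 0.10 for HEY1. WNT16, a Wnt ligand, was detected on both 2 h arrays and on neither 4 h array, and was at least 3.36-fold lower at 4 h (adjusted p = 1.9e-07). NDUFV3, BET1L and ASTE1 were at least 2.88, 2.82 and 2.57-fold lower, with 0.13 on a second NDUFV3 probe. The call of GABRE (at least 2.48-fold lower) was lost without any 1 of the 4 arrays, at adjusted p up to 0.15.

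Few transcripts turned over. Of the 17 genes in this class, 11 were undetected on both 4 h arrays and 3 were called in all fits without an array. These 3, EHD3, WASF2 and TMEM169, were picked out after their values were seen. EHD3 was detected on none of the 4 copper arrays, and WASF2 and TMEM169 on neither 4 h array. ZFP36 encodes an mRNA-destabilizing protein (tristetraprolin). This gene read 11.31 and 11.19 at 4 h and 11.60 and 11.83 at 2 h, against 9.49 to 9.72 in untreated cells. The fall of 0.46 ± 0.13 (adjusted p = 0.030) was small beside the earlier gain of 2.09, and its call was lost without either 4 h array and without replicate 2 of 2 h (adjusted p up to 0.28). RGS16, a regulator of G protein signalling, gave 5.82 and 6.25 at 4 h and 7.19 and 7.04 at 2 h (-1.08 ± 0.27, adjusted p = 0.015), and RAB20, an endosomal GTPase, 5.36 and 5.33 at 4 h and 6.48 and 6.27 at 2 h (-1.03 ± 0.24). The RGS16 call was lost without replicate 1 of 4 h and without either 2 h array, and the RAB20 call without either 4 h array and without replicate 1 of 2 h, at adjusted p up to 0.16 and 0.10. RAB20 at 4 h was below its untreated range of 5.48 to 5.73, and RGS16 reached into its own of 5.30 to 6.02.

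CBR3, a carbonyl reductase, fell by 0.90 ± 0.25, a call lost without replicate 2 of 4 h and without replicate 1 of 2 h (adjusted p up to 0.29), and EPX, ACTA1 and COPG2IT1, undetected at 4 h, were at least 1.76, 1.83 and 1.79-fold lower. The EPX and ACTA1 calls were lost without any 1 of the 4 arrays and the COPG2IT1 call without either 4 h array and without replicate 2 of 2 h, at adjusted p up to 0.17, 0.14 and 0.20. The 3 recovering genes were FOSL1, an AP-1 subunit (0.48 ± 0.11), ACBD5, a peroxisomal tethering protein (0.63 ± 0.17, with -0.02 on its other probe), and the long noncoding RNA FAM215A (0.85 ± 0.22, outside the naming rule), and each was lost in at least 2 of the 4 fits, with adjusted p up to 0.13, 0.40 and 0.18. Among the 18 genes still falling, 13 of the calls between 2 and 4 h were present in all 4 fits, but the class itself, which also needs a call at 2 h, shrank to 5 and 2 genes without replicate 1 and replicate 2 of 2 h. CCDC71 and KCTD14 were among the 13, at -1.73 ± 0.19 and -1.50 ± 0.18, beside HPS6, FADD, GEMIN6, INTS5 and AXIN2. Over the mRNA decay regulators, 2 of 18 rose (11.1%) and 1 fell (5.56%), with a median of -0.10. Over all genes tested the shares were 4.2% and 5.12%. BTG1, an antiproliferative partner of the CCR4-NOT complex, rose by 1.02 ± 0.12.

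Later copper arrays placed the interval within the course. HSPA6 gave signals of 11.33 and 11.44 on the 6 h arrays, 12.72 and 12.78 on the 12 h arrays and 12.75 and 12.57 on the 18 h arrays, so its signal at 4 h was below every later array. CXCL8 reached 10.57 and 10.42 on the 6 h arrays and 10.94 and 11.05 on the 18 h arrays. SLC30A1 differed, with its highest arrays at 4 h, then 11.42 and 11.40 on the 6 h arrays, 10.76 and 10.70 on the 12 h arrays and 9.92 and 9.73 on the 18 h arrays. EGR3 at 6 h, 9.71 and 9.79, lay between its 4 h arrays. FOS did not fade: it gave 11.10 and 11.36 on the 6 h arrays, 11.94 and 12.00 on the 12 h arrays and 12.53 and 12.05 on the 18 h arrays. HPS6 continued down to 6.32 and 6.11 on the 6 h arrays and 4.59 and 4.75 on the 18 h arrays, and ZFP36 to 10.62 and 10.49 on the 6 h arrays. These later levels are descriptions and were not tested here.

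**Figure D3:**
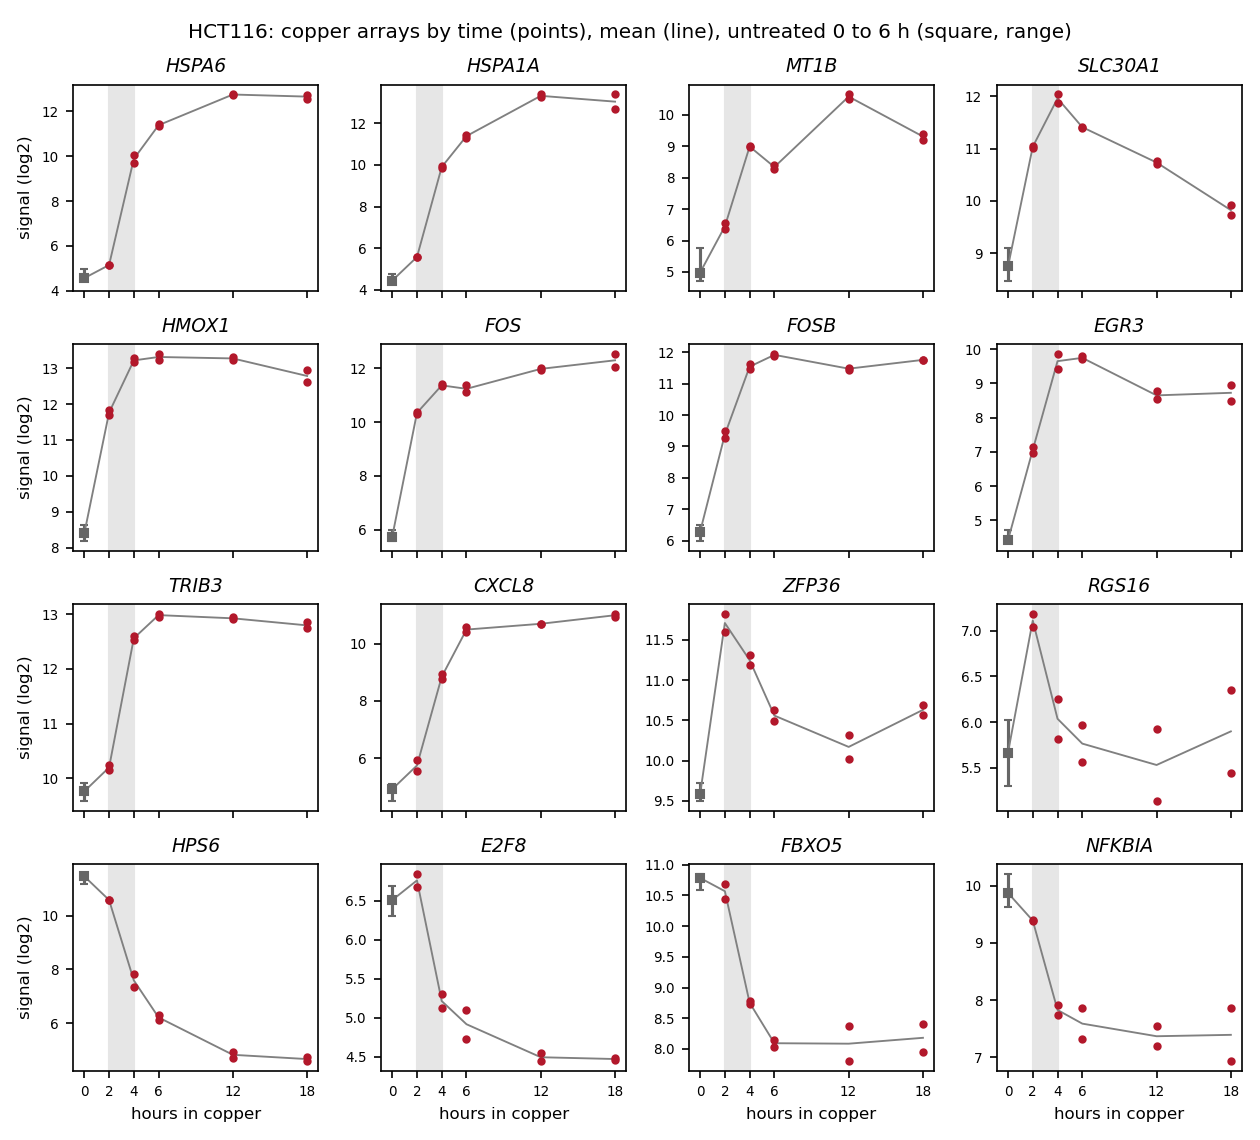
Normalized signal (log2, vertical axis, scaled per gene) of 16 genes in HCT116 against hours in copper, with the 2 to 4 h interval shaded. Points are single copper arrays, the line joins their means, and the square at 0 with its bar gives the median and range of the 6 untreated arrays of 0 to 6 h. HSPA6, HSPA1A and CXCL8 rise steeply inside the shaded band, and ZFP36, RGS16, HPS6, E2F8, FBXO5 and NFKBIA fall within it.

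In BEAS-2B at 800 µM, 404 genes (2.75%) rose and 489 (3.33%) fell over the same interval, together 6.08%. The difference between the lines, HCT116 minus BEAS-2B, was itself tested and called for 264 genes (1.8%), with the larger value in HCT116 for 140 (0.954%) and the smaller for 124 (0.845%). As the lines received different concentrations, line and dose cannot be told apart. HSPA1A differed by 3.77 ± 0.23 (adjusted p = 9.9e-08), with a gain of 4.31 in HCT116 and 0.54 in BEAS-2B. In BEAS-2B it was already high, at 14.04 and 13.90 at 4 h and 13.54 and 13.32 at 2 h, above the 9.83 and 9.95 of HCT116 at 4 h. BHLHE40 (12.53 and 12.65 at 4 h, 12.43 and 12.39 at 2 h) and DUSP1 (13.85 and 13.82 at 4 h, 13.48 and 13.55 at 2 h) in BEAS-2B likewise exceeded their HCT116 signals at both times. HSPA6 rose in both lines, by 4.74 and 3.85. EGR1 rose by 0.79 in HCT116 and fell by 0.97 in BEAS-2B (difference 1.76 ± 0.16, adjusted p = 6.5e-06). MT1B rose in HCT116 and was not detected in BEAS-2B copper cells of 4 or 2 h. BCOR, a BCL6 corepressor, fell by 1.26 in HCT116 and rose by 0.88 in BEAS-2B. In the immediate early list 12 of 22 genes differed between the lines, in the heat shock list 5 of 32, and in the NRF2, mitosis and DNA replication lists 0 each. HPS6 was lower in both (-2.99 and -2.14, difference -0.85 ± 0.26, adjusted p = 0.12), as was FBXO5 (-1.82 and -1.56, difference -0.26 ± 0.26, adjusted p = 0.81). SLC30A1 rose by 0.92 and 0.95 (difference -0.02 ± 0.19, adjusted p = 0.98). A p above the threshold does not show that the lines acted alike.

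**Figure D4:**
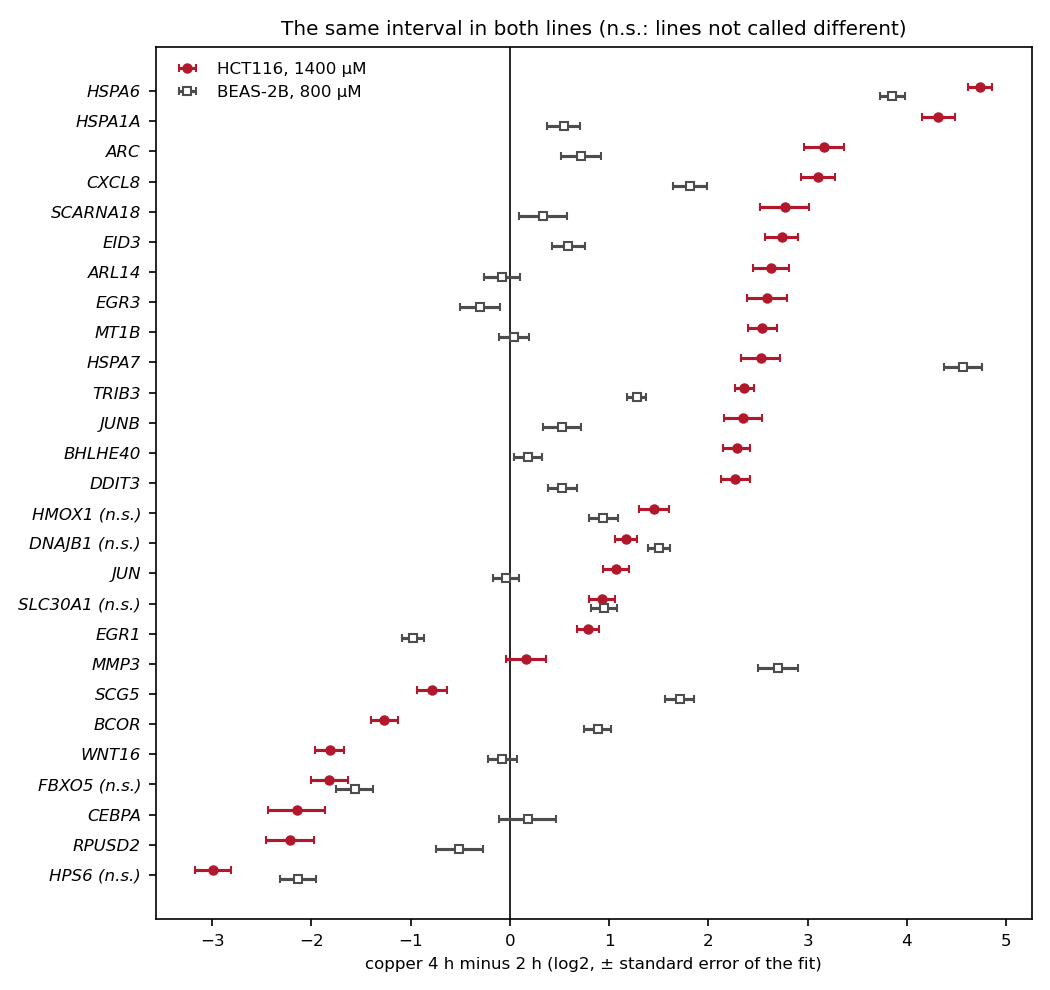
Difference between 4 h and 2 h in copper (log2, horizontal axis, with standard errors of the fit) for 27 genes in HCT116 at 1400 µM (filled circles) and BEAS-2B at 800 µM (open squares). Genes marked n.s. were not called different between the lines. HSPA1A, ARC, EGR3, ARL14 and MT1B rose in HCT116 with values between -0.30 and 0.72 in BEAS-2B, where HSPA1A was already at 13.54 and 13.32 at 2 h, and HSPA7 and MMP3 were higher in BEAS-2B.

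The remaining lists are given beside the shares over all genes tested, 4.2% higher and 5.12% lower. Cholesterol synthesis genes rose in 4 of 16 cases (25.0%), all of them lost when some array was left out. Splicing regulators of the SR and CLK families rose in 2 of 14, with CLK1, a kinase of SR proteins, at 10.98 and 11.35 at 4 h and 10.18 and 10.13 at 2 h (1.01 ± 0.15). Of 19 YAP and actin genes 2 rose, TAGLN by 1.70 ± 0.12 with probes between 0.15 and 1.77. Of 15 replication histone genes 2 rose (13.3%) and 1 fell (6.67%). The shares that rose were 14.3% in the SR and CLK list and 10.5% in the YAP and actin list. Of 18 lipoylation and iron-sulphur genes and of 18 glycolysis genes 1 fell in each (5.56%, near the share over all genes) and 0 rose. Calls present in all fits without an array numbered 3 of 4 for the ubiquitin and ZFAND list, 2 of 3 each for the KLF and circadian lists, 1 of 2 each for the EGF receptor, SR and CLK, and YAP lists, and 1 of 3 each for the mRNA decay and histone lists. Of 10 colon epithelium markers 8 were detected on all 4 arrays and 1 fell, CDX2 (-0.89 ± 0.15), with a summed level of 14.38 to 14.44 at 4 h and 14.45 to 14.48 at 2 h. Of 8 mesenchymal markers 1 was detected on all 4 arrays and 4 on none, and COL1A1 fell, undetected at 4 h (at least 1.56-fold lower, called in 1 of the 4 fits without an array). Of 3 basal airway markers 0 changed, and of 6 leukocyte markers CD14 rose (0.61 ± 0.16, lost without replicate 1 of 4 h and without either 2 h array, and -0.23 on its other probe), while PTPRC was detected on none of the 4 arrays. Their part in the results was not tested. In bulk RNA, a lower share of cells with a transcript and less of it per cell cannot be told apart.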

How the data were processed

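RNA was measured on Illumina bead arrays, with signals from BeadStudio per the submitters' processing notes. The authors deposited a log2 signal per probe and array, called non-normalized in the file header, and a detection p-value of each probe against background. Array means are so alike that earlier scaling by the authors cannot be told from these values. These values were un-logged and processed with neqc (background correction, offset 16, quantile normalization, log2) in limma 3.58.1 (R 4.3.3). Of 43960 probes, those named by the platform annotation and detected (p below 0.01) on at least 2 of 36 arrays were kept, 1 probe per gene (highest mean), giving 14678 genes. One model held 22 groups, with 14 residual degrees of freedom and a median residual SD of 0.21. Tests were two-sided with Benjamini-Hochberg adjustment over all genes, and the script was checked on simulated data. The number of arrays limits the precision, and intensities of probes not detected on any array of a group give bounds. For these, a signal below an array's lowest detected signal was raised to it, and a higher one was used as measured.

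The 32 gene lists, 4 marker lists and named genes were chosen with earlier results of these data known. Named were the 15 largest rises and falls with non-overlapping, detected groups, the 5 largest bounds each way, the 6 largest of each trajectory class, up to 4 members of each list by adjusted p, the 5 largest line differences each way, and a fixed set of stress genes. Promoters came from RefSeq (GRCh38.p14). Alternatives were another normalization, detection filter, probe rule, variance prior, set of arrays, untreated reference and replicate block, and leaving out each array. Replicate numbers were not used to pair the arrays in the main fit. The correlation of replicate differences of 4 h and 2 h was -0.0048, which cannot show whether cultures were paired, and the labels do not say. Scan dates and slides were not given in the sources used here.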

Additional observations from a re-analysis of the deposited data

Results flagged for a closer look

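For 50 of the 206 named genes the difference between 4 h and 2 h itself differed between HCT116 at 1400 µM and BEAS-2B at 800 µM, by limma's test of the difference between lines over all 14678 genes with Benjamini-Hochberg adjustment. Line and dose cannot be told apart. Values are HCT116 minus BEAS-2B on the log2 scale. Among chaperones the difference was 3.77 for HSPA1A and 0.88 for HSPA6, and -2.04 for HSPA7.

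The 4 h minus 2 h difference of immediate early and feedback genes was larger in HCT116. It was larger by 2.89 for EGR3, 2.45 for ARC, 1.83 for JUNB, 1.76 for EGR1 and 1.35 for DUSP1. For FOSB, JUN, IER2 and DUSP5 it was larger by 1.14, 1.11, 0.90 and 0.77. The KLF factors KLF10, KLF2 and KLF9 differed by 2.05, 1.48 and 1.39. KLF2 was at 0.20 in HCT116 and -1.29 in BEAS-2B, so most of its difference lay in the BEAS-2B fall. Stress response genes also had larger 4 h minus 2 h differences in HCT116. These were larger by 1.74 for DDIT3, 1.24 for GADD45B, 1.08 for TRIB3, 0.99 for PPP1R15A, 0.79 for GADD45A and 0.75 for ATF3. A larger difference is not a higher signal. At 2 h PPP1R15A read 12.71 and 12.45 in BEAS-2B, against 11.54 and 11.61 in HCT116. CXCL8 was also higher in BEAS-2B at 2 h, ATF3 overlapped between the lines and MT1B was lower. These levels were not tested between lines. MT1B differed by 2.50, CXCL8 by 1.29, BHLHE40 by 2.10 and EID3 by 2.15. TAGLN differed by 1.68, HBEGF by 1.44, PTGS2 by 0.92 and KDM3A by 0.86. ABL2 differed by 1.30 and MED13 by 1.39. The small noncoding RNAs SCARNA18, MIR574 and SNORA20 differed by 2.43, 1.88 and 1.33, and ARL14 by 2.71.

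Lower 4 h minus 2 h differences in HCT116 were found for MMP3 (-2.54), SCG5 (-2.50), CEBPA (-2.32), BCOR (-2.15), WNT16 (-1.74), RPUSD2 (-1.71) and LFNG (-1.52). The same held for FJX1 (-1.32), FOXD2 (-1.11), ZNF627 (-1.05), AXIN2 (-1.50), ACTA1 (-1.42), E2F8 (-0.99), DKK1 (-0.92) and GEMIN6 (-0.82). MMP3 was at 0.17 in HCT116 and 2.70 in BEAS-2B, and SCG5 at -0.79 and 1.71. MT1B, CEBPA, FOXD2, ARL14, MIR574, SNORA20, WNT16, ACTA1, PTGS2, E2F8, MMP3 and SCG5 were undetected on every array of at least 1 of the 4 groups. The size of each of these 12 differences thus includes signals that were not above background.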

How the results depend on the processing

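No named result turned its direction under any alternative run. With the replicate number as a block, 1301 genes were called, 1256 of them among the 1367. The block lowered falls at 2 h against untreated to 34 (of 54) and recovering genes to 1 (of 3). Arrays in the fit mattered more. With only the HCT116 arrays, calls fell to 832 (375 up, 457 down), turned-over genes to 8 and first rises and falls to 258 and 434. With only the 4 arrays compared, calls fell to 396 (190 up, 206 down), with 80 still rising, 3 turned over, 10 still falling, 1 recovering and 109 first rises and 193 first falls. Leaving out 1 array gave 770 to 886 calls (372 to 424 up, 398 to 462 down), 73 to 118 still rising, 6 to 18 turned over, 2 to 17 still falling, 0 to 2 recovering, 290 to 311 first rises and 379 to 435 first falls.

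The same left-out arrays gave 141 to 175 calls at 2 h against untreated (129 to 159 up, 12 to 16 down), 2040 to 2273 at 4 h (961 to 1109 up, 1079 to 1164 down), 188 to 252 with the untreated interval subtracted (118 to 150 up, 70 to 102 down) and, with BEAS-2B arrays left out too, 129 to 193 between lines (74 to 106 higher, 54 to 87 lower). Against the single untreated array of the same hour, calls were 135 at 2 h (115 up, 20 down) and 1482 at 4 h (685 up, 797 down), with 83 still rising, 5 turned over, 3 still falling and 0 recovering.

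With the authors' quantile-normalized table and without background correction, falls at 2 h were 114 in both, still-falling genes 51 in both, falls with the untreated interval subtracted 195 in both, and line differences 412 and 413 (209 and 210 lower). Sizes were then smaller (median ratio 0.786). The strict detection filter gave 93 falls at 2 h, 34 still falling and 9 recovering, and the intensity trend gave 100 falls at 2 h. Recovering genes numbered 1 without the filter and 1 when probes of a gene were averaged. Where a setting did not itself use fewer arrays, the cause was not tested. With 2 arrays per group and dim probes near background, membership of the turned-over, still-falling and recovering classes is uncertain.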
